A study of Mus musculus with 6 samples.

Results

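Excitation-contraction coupling and the calcium store were followed through 10 genes in mouse C2C12 cells: Ryr1, Atp2a1, Casq1, Casq2, Hrc, Cacna1s, Cacng1, Cacnb1, Jsrp1 and Sypl2. They were chosen by name, as the genes of the skeletal release channel, its calcium pump, the calcium binding proteins of the store, the voltage sensor subunits and the triad proteins, and all 10 were found among the 37991 gene identifiers counted in each library. C2C12 is a myoblast line of C3H mouse origin that leaves the cell cycle and fuses into myotubes when serum is lowered. The study asked how KAP1, the transcriptional co-regulator encoded by Trim28, bears on muscle differentiation. The knockdown cells were transduced with a lentivirus carrying a short hairpin against Kap1 (sh-Kap1), and the control cells with a lentivirus carrying a hairpin against luciferase (sh-Luc), so transduction is shared by all cells profiled. Cells kept 48 hours in low horse serum with insulin, transferrin and selenium (MT) gave 1 library for the knockdown and 1 for the control, and proliferating myoblasts in fetal calf serum (MB) gave 2 libraries for the knockdown and 2 for the control. RNA was cytoplasmic and selected for polyA tails, so nuclear transcripts were not measured. Whether the 2 MB libraries of a group are separate cultures is left unsaid in the labels; p-values therefore speak for the spread between these libraries, and that spread may be technical.

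In skeletal muscle, an action potential moves the voltage sensor of the transverse tubule, a calcium channel with Cacna1s as its pore subunit, and the sensor opens the ryanodine receptor of the sarcoplasmic reticulum by direct contact. Calcium stored in the reticulum on calsequestrin then flows to the myofibrils and is pumped back by the SERCA calcium ATPases. Myoblasts have little of this apparatus and build it as they become myotubes.

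The 6 libraries held 36247530 to 49839994 counts on genes, and 19386 to 21351 genes had a count. Levels are given as CPM, the counts scaled to a common library total. Trim28, the check of the labels, stood at 122 CPM in the MT knockdown library against 382 CPM in the MT control library, and at 152 and 101 CPM in the MB knockdown libraries against 587 and 417 CPM in the MB controls. Summed CPM of 5 markers of differentiated muscle (Myog, Mymk, Ckm, Acta1, Myh3) was 91.9 in the MT knockdown library and 5715 in the MT control library. It was 9.9 and 56.6 in the MB knockdown libraries and 9.89 and 104 in the MB controls, so replicate 2 of both MB groups stood above replicate 1. File names set the same libraries apart: those of replicate 2 in MB lack a mark that the other 4 file names have, and its meaning is unknown here. Results are therefore given from a fit of group means alone and from one with a term for this mark, which in MB is the same as the replicate number.

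Before any fold change, the levels themselves show where this apparatus was expressed. In the MT control library the 10 genes summed to 1956 CPM. The sum was 66.9 CPM in the MT knockdown library, 14.5 and 61.3 CPM in replicates 1 and 2 of the MB knockdown, and 26 and 70.6 CPM in those of the MB control. The MT control library thus stood alone, and the MT knockdown library lay among the replicate 2 myoblasts.

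**Figure D1:**
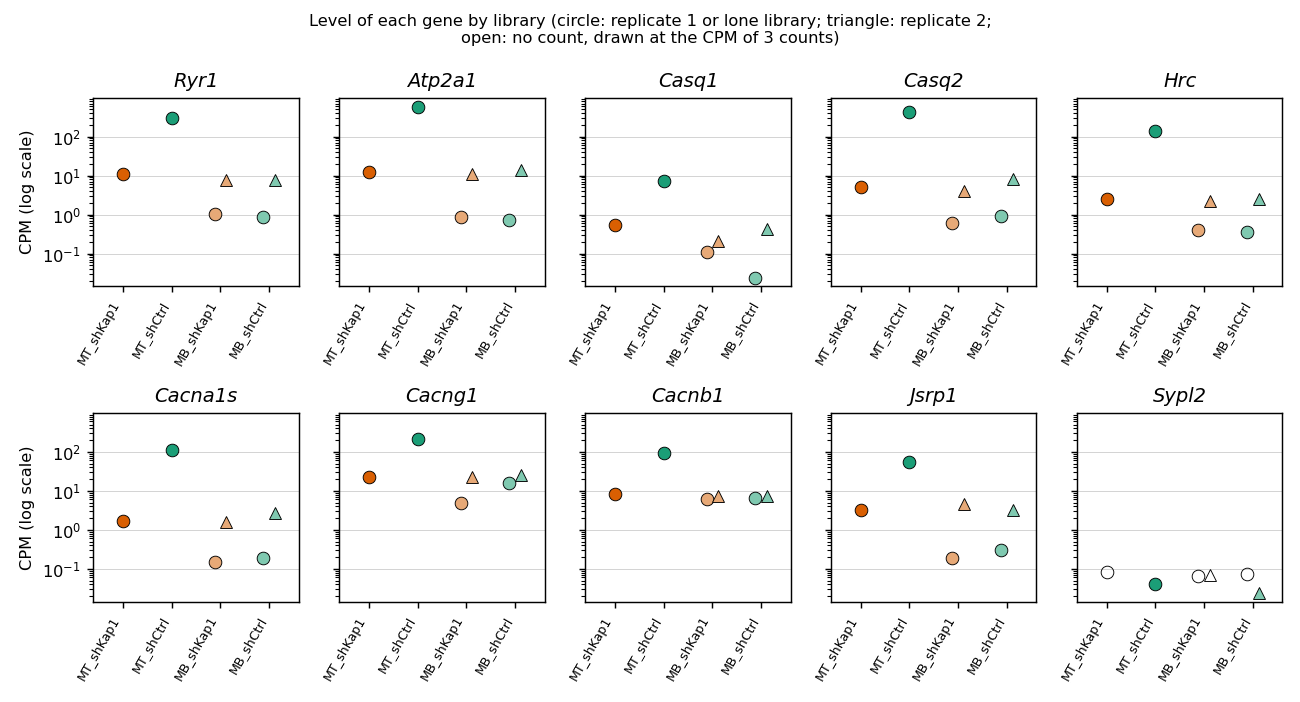
Level of each of the 10 genes in CPM on a log axis, with circles for replicate 1 or a lone library and triangles for replicate 2. The open symbols of Sypl2 are libraries without a count, drawn at the CPM of 3 counts. The MT control library is the highest for the 9 other genes, and in MB the triangles lie above the circles.

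Knockdown against control at 48 hours of differentiation comes first. With 1 library on each side this contrast has no replicate check of its own, and the intervals below cover counting error only. Ryr1 (ENSMUSG00000030592) encodes the calcium release channel of the skeletal reticulum. It had 10.8 CPM in the MT knockdown library and 308 CPM in the MT control library, which leaves 3.5% of the control level (95% interval 3.16% to 3.88%). Atp2a1 (ENSMUSG00000030730), the fast skeletal SERCA1 pump, had 12.7 CPM in the MT knockdown library and 591 CPM in the control, or 2.16% (1.96% to 2.36%). Among the members it was the most abundant in the MT control library by CPM, and no other library had more than 13.5 CPM.

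The store proteins followed the channel and the pump. Casq2 (ENSMUSG00000027861), the cardiac calsequestrin, found also in slow fibres, had 5.24 CPM in the MT knockdown library against 438 CPM in the MT control library. Its remaining share was the smallest of the 9 genes at 1.2% (1.03% to 1.38%). Casq1 (ENSMUSG00000007122), the skeletal muscle calsequestrin, was far lower in level. It had 20 counts or 0.552 CPM in the MT knockdown library and 352 counts or 7.06 CPM in the control. Its share was 7.81% (4.71% to 12.3%). Hrc (ENSMUSG00000038239), the histidine-rich calcium binding protein of the reticulum lumen, had 2.54 CPM in the MT knockdown library and 138 CPM in the control, or 1.84% (1.48% to 2.26%).

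The subunits of the voltage sensor kept unequal shares. Cacna1s (ENSMUSG00000026407), the pore and voltage sensing subunit, had 1.71 CPM in the MT knockdown library and 113 CPM in the MT control library, a share of 1.51% (1.16% to 1.94%). Cacnb1 (ENSMUSG00000020882), the beta subunit that brings the sensor to the triad, kept 8.85% (7.83% to 9.96%), with 8.06 CPM in the MT knockdown library and 91.1 CPM in the control. Cacng1 (ENSMUSG00000020722), the skeletal gamma subunit, kept the highest share of the 9 genes, 10.3% (9.56% to 11%), with 22.1 CPM in the MT knockdown library and 215 CPM in the control. In this pair of libraries the counting intervals of the 2 auxiliary subunits did not overlap with that of Cacna1s. Those intervals hold no spread between libraries, and whether the subunits differ beyond this pair was not tested.

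Of the triad proteins, Jsrp1 (ENSMUSG00000020216), which binds the voltage sensor and calsequestrin, had 3.17 CPM in the MT knockdown library and 55.1 CPM in the MT control library, or 5.76% (4.73% to 6.94%). Sypl2 (ENSMUSG00000027887), mitsugumin 29 of the triad membrane, was at or near 0 everywhere: 0 counts in the MT knockdown library, 2 in the MT control library, 0 in both MB knockdown libraries, and 0 and 1 in the MB controls. A count of 0 allows up to 0.0828 CPM in the MT knockdown library. Sypl2 did not pass the filter on low counts and was not tested, and no fold is given for it.

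In the test across genes, the 9 members that passed the filter were lower in the MT knockdown library by 3.42 (Cacng1) to 6.52 (Casq2) on the log2 scale. Their median log2 change was -4.97, beside 0.02 over the 16472 genes tested. The fit of group means alone called none of the 9 and none of all genes (0%), with adjusted p from 0.457 for Cacnb1 to 0.716 for Jsrp1 (edgeR quasi-likelihood, Benjamini-Hochberg); at an unadjusted p under 0.05 it held 4 of the 9 (Casq2, Hrc, Cacng1, Cacnb1) and 818 genes in all in the lower direction (4.97%). With the mark term 8 of the 9 passed as lower, where 11.2% of all genes did, and the log2 changes were the same, since both MT libraries carry the mark. Adjusted p in that fit was 3.56e-08 for Ryr1, Atp2a1, Casq2 and Hrc, 4.29e-08 for Cacna1s, 4.35e-07 for Cacnb1, 9.25e-06 for Jsrp1 and 0.000999 for Casq1, and Cacng1 did not pass (0.241). The 2 fits differ in the spread they assign to MB libraries, a biological coefficient of variation of 32.9% without the term and 9.74% with it, and the term leaves 1 residual degree of freedom. DESeq2 without the term called 2 of the 9, Cacng1 and Cacnb1, where 1.82% of all genes were called lower. All 9 were lower at least 4-fold, as were 3.9% of the genes tested.

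Beside this, the markers of differentiated muscle were lower in the MT knockdown library as well: in edgeR 4 of 5 passed with the mark term and 0 without, DESeq2 called 2, and the list's median log2 change was -6.01. Myoblast markers (Myod1, Myf5, Des, Cdh15, Pax7) summed to 799 CPM in the MT knockdown library and 1740 CPM in the MT control library, with 1 of 5 called lower by edgeR with the mark term. Most of that sum was Des, at 552 CPM in the MT knockdown library and 1209 CPM in the MT control library. Myod1 had 27.5 CPM in the MT knockdown library and 233 CPM in the MT control library, and Cdh15 had 136 and 264 CPM. Pax7 was near 0 in both, at 0.276 and 0.301 CPM. Myf5 went the other way, at 82.4 CPM in the MT knockdown library and 34.8 CPM in the MT control library. Whether fewer cells with this apparatus or less of its RNA per cell lay behind the levels cannot be told apart in bulk RNA, and the part of the markers in the result was not tested. The 7 cardiomyocyte markers summed to 23.3 CPM in the MT knockdown library, 65.4 CPM in the MT control library and 26 to 30.6 CPM in MB. Most of this was Myh6, at 0.579 CPM in the MT knockdown library and 41.4 CPM in the MT control library, and Gata4, at 20.7 and 23.2 CPM. In every library 4 of the 7 were under 1 CPM. Adipocyte, neuron and haematopoietic lists summed to at most 28.7 CPM in any library, with Adipoq, Lep, Rbfox3, Snap25 and Adgre1 at 0 throughout. Smooth muscle markers, which cultured myoblasts also express, summed to 5914 CPM in the MT knockdown library and 5587 CPM in the MT control library. Most of it was Acta2, at 4685 CPM in the MT knockdown library and 5116 CPM in the MT control library. The others were higher in the MT knockdown library, among them Tagln (765 against 280 CPM) and Cnn1 (57.1 against 5.14 CPM). With the mark term edgeR called 4 of 6 higher, where 9.09% of all genes were, and without it edgeR and DESeq2 called 0.

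**Figure D2:**
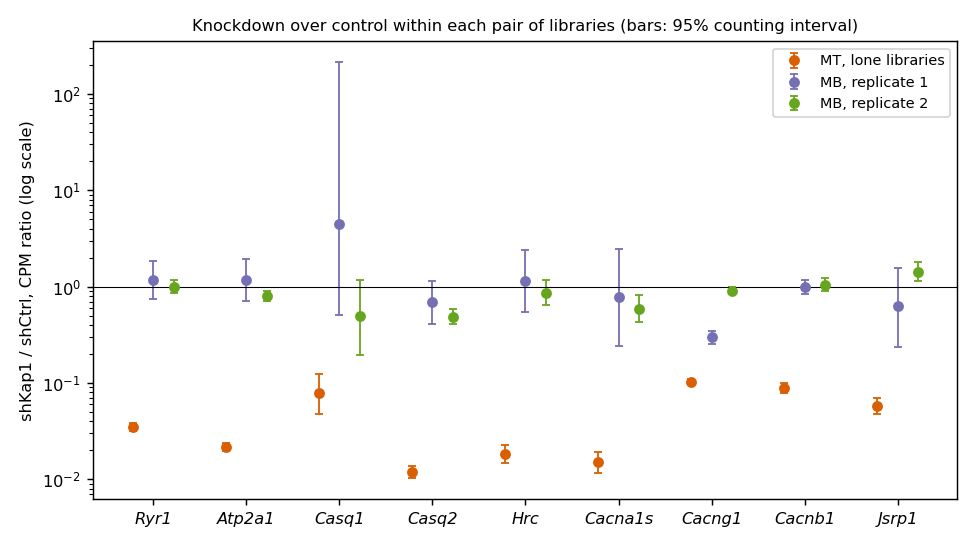
Knockdown over control as a ratio of CPM, on a log axis, for 9 of the genes within each pair of libraries; bars are 95% counting intervals and the line marks equal levels. The MT ratios lie between 0.012 and 0.103, while the MB ratios lie between 0.489 and 1.42, apart from Cacng1 in replicate 1 at 0.297 and Casq1 in replicate 1 at 4.5, which rests on 5 counts and 1 count.

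In proliferating myoblasts the knockdown left no common shift of these genes. The plot of knockdown over control within library pairs shows that, of the MB ratios, 6 of the 9 genes had a ratio above 1 in one replicate and below 1 in the other. Casq2 was lower in the knockdown in both pairs, with 0.622 and 4.05 CPM in replicates 1 and 2 of the MB knockdown against 0.906 and 8.29 CPM in those of the MB control. Its ratios were 0.686 (0.408 to 1.14) and 0.489 (0.405 to 0.588), so in replicate 1 the counting interval included 1. Cacna1s had ratios of 0.787 (0.243 to 2.48) and 0.592 (0.43 to 0.809). Cacng1 had 4.78 and 22.5 CPM in the MB knockdown libraries and 16.1 and 24.8 CPM in the MB controls, hence a ratio of 0.297 in replicate 1 and 0.906 in replicate 2. Cacnb1 varied least of the 9, between 6.34 and 7.56 CPM over all 4 MB libraries.

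For all 9 genes tested the MB groups overlapped, whereas 11% of all genes tested had every knockdown library below every control library and 15.6% had it above. The fit of group means called none of the 9 in MB and no gene at all (0%), with every adjusted p at 1; at an unadjusted p under 0.05 it held none of the 9, beside 119 genes lower (0.722%) and 335 higher (2.03%). DESeq2 called none of the 9, with 14 genes lower (0.085%) and 38 higher (0.231%). With the mark term Casq2 alone passed, at a log2 change of -0.94 with a standard error of 0.153 and an adjusted p of 0.00801, where 1.34% of all genes were called lower and 2.5% higher. Without the term the standard error of the change of Casq2 was 1.33, and the change ranged from -2.93 to 1.35 as single MB libraries were left out.

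Myoblast libraries differed more by replicate number. Replicate 2 was above replicate 1 in both MB groups for all 9 genes tested, as for 35.8% of all genes. Jsrp1 had 0.193 and 4.67 CPM in replicates 1 and 2 of the MB knockdown, and 0.31 and 3.3 CPM in those of the MB control. Atp2a1 had 0.857 and 10.8 CPM in the MB knockdown and 0.739 and 13.5 CPM in the MB control. Ryr1 had 1.03 and 7.85 CPM in the MB knockdown and 0.882 and 7.92 CPM in the MB control. In each of these, replicate 2 was above replicate 1 whichever hairpin the cells carried. Replicate 2 was at least 4-fold above replicate 1 in both MB groups for 6 of the 9 genes (Ryr1, Atp2a1, Casq2, Hrc, Cacna1s and Jsrp1), a pattern found in 2.2% of all genes tested. For Cacnb1 the replicates differed by 1.19-fold in the MB knockdown and 1.11-fold in the MB control. The summed markers of differentiated muscle moved the same way, at 9.9 and 56.6 CPM in the MB knockdown and 9.89 and 104 CPM in the MB control, while smooth muscle markers moved the other way, at 6326 and 2081 CPM in the MB knockdown and 3274 and 1387 CPM in the MB control. Their part in the replicate difference was not tested. The smooth muscle sum was also higher in the MB knockdown than in the MB control at each replicate number. With the mark term edgeR called 5 of these 6 markers higher in the MB knockdown, where 2.5% of all genes were. Without it edgeR and DESeq2 called 0 of them.

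Differentiation of the control cells, MT against MB, was compared next. The MT control library stood above all 4 MB libraries by at least 4-fold for all 9 genes, as for 4.96% of all genes tested. How far above depends on the replicate it is set against. Atp2a1, at 591 CPM in the MT control library, was 800-fold above replicate 1 and 43.8-fold above replicate 2 of the MB control. Ryr1 was 349-fold above replicate 1 and 38.9-fold above replicate 2, and Casq2 484-fold and 52.8-fold. Cacna1s was 593-fold and 43-fold above them, Hrc 386-fold and 55-fold, and Jsrp1 178-fold and 16.7-fold. The 2 auxiliary subunits had lower folds: Cacnb1 was 14.1-fold and 12.7-fold above the MB control libraries, and Cacng1 13.3-fold (12.3 to 14.4) and 8.66-fold (8.12 to 9.24). For Casq1 the ratio was 296 (52.8 to 11736) against replicate 1, which had 1 count, and 16.9 (10.4 to 29.3) against replicate 2.

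Without the mark term none of the 9 passed in this contrast and 0% of all genes did, with adjusted p of 0.0522 for Cacnb1 and 0.0993 or more for the others; at an unadjusted p under 0.05 it held 8 of the 9 and 13.4% of all genes as higher. With the term 8 of the 9 rose, where 22.3% of all genes were called higher, with log2 changes of 9.44 for Atp2a1, 9.06 for Cacna1s, 8.78 for Casq2, 8.45 for Hrc, 8.38 for Ryr1, 7.98 for Jsrp1, 6.49 for Casq1 and 3.87 for Cacnb1. Cacng1, at 4.11, did not pass (adjusted p = 0.114). DESeq2 without the term also called 8 of the 9, Cacng1 included and Jsrp1 not, with 7.81% of all genes called higher. Because both MT files carry the mark, the values with the term follow the comparison with replicate 1. This contrast and the MT knockdown contrast share the MT control library.

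Among knockdown cells the difference between MT and MB was much narrower. Against replicate 1 of the MB knockdown, the MT knockdown library was higher for all 9 genes, from 1.27-fold for Cacnb1 to 16.4-fold for Jsrp1. Against replicate 2 it ranged from 0.679-fold for Jsrp1 to 2.68-fold (1.17 to 6.68) for Casq1. Ryr1 was 10.5-fold above replicate 1 and 1.37-fold above replicate 2, Atp2a1 14.9-fold and 1.18-fold, and Cacna1s 11.4-fold and 1.1-fold. The MT knockdown level lay inside the range of the 4 MB libraries for Atp2a1, Casq2, Cacna1s, Cacng1 and Jsrp1, 5 of the 9, as it did for 34.9% of all genes tested. For Ryr1, Casq1, Hrc and Cacnb1 it lay above that range, with Hrc at 2.54 CPM against a highest MB value of 2.51 CPM. Without the mark term none of the 9 passed (0% of all genes, smallest adjusted p of the 9 at 0.58, and none at an unadjusted p under 0.05, beside 7.44% of all genes as higher; DESeq2 called none of the 9 and 2.17% of all genes as higher). With it 7 rose, where 16.6% of all genes did, with log2 changes from 2.69 for Hrc to 4.01 for Atp2a1; Cacng1 (1.59) and Cacnb1 (0.24) did not pass. Leaving out replicate 1 of the MB knockdown from the fit without the term put the log2 changes between -0.67 for Jsrp1 and 1.30 for Casq1.

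The test of whether the knockdown effect differed between MT and MB is the interaction, the MT effect minus the MB effect. Without the mark term edgeR called none of the 9 (0% of all genes; adjusted p from 0.848 to 1), and at an unadjusted p under 0.05 it held Hrc and Cacnb1, with 3.3% of all genes as lower. With the term 8 of the 9 passed as lower, where 6.63% of all genes did. Hrc had the most negative value, -5.75 with a standard error of 0.263, followed by Casq2 at -5.58, Cacna1s at -5.46 and Atp2a1 at -5.44. Ryr1 stood at -4.99, Jsrp1 at -4.55, Cacnb1 at -3.63 and Casq1 at -3.41. Cacng1, at -2.52 with a standard error of 1.12, did not pass (adjusted p = 0.434). DESeq2 without the term called Cacnb1 alone, with 0.85% of all genes lower. Scaling to total counts in place of TMM moved the median of all genes in MT from 0.018 to 0.155. With the mark term, the share of calls that were higher moved from 44.8% to 62.7% in MT. For the interaction it moved from 36.6% to 52.1%. Under total counts with the term, 3715 genes were called in MT and 1764 for the interaction, in either direction. In these contrasts 8 and 7 of the 9 members passed as lower.

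Several members have a sister gene with the same role in other tissues, and the balance within each pair was read within a library, per kilobase of annotated exon. Casq2 was 6.77 times Casq1 in the MT knockdown library (4.26 to 11.3) and 44.2 times Casq1 in the MT control library (39.8 to 49.3). In the MB knockdown it was 4.14 and 14 times Casq1 in replicates 1 and 2, and 14.1 times in replicate 2 of the MB control; replicate 1 of the MB control, with 1 count of Casq1, gives no ratio. Casq2 was thus the more abundant of the pair wherever the ratio could be read.

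Atp2a2, the SERCA2 pump found in most tissues, had 238 CPM in the MT knockdown library and 644 CPM in the MT control library. The ratio of Atp2a1 to Atp2a2 per kilobase was 0.0936 in the MT knockdown library and 1.61 in the MT control library, against 0.00368 and 0.0594 in the MB knockdown and 0.00302 and 0.0729 in the MB control. Per kilobase, Atp2a1 RNA exceeded Atp2a2 RNA in the MT control library alone. By CPM it was below Atp2a2 there, at 591 against 644 CPM, so the order depends on the exon lengths used. The ratio of Ryr1 to Ryr3, the ryanodine receptor also found in brain and immature muscle, was 0.558 in the MT knockdown library and 4.29 in the MT control library, and 0.0864 and 0.448 in the MB knockdown and 0.0516 and 0.632 in the MB control. For the beta subunits the ratio of Cacnb1 to Cacnb3 was 0.0416 in the MT knockdown library and 0.754 in the MT control library, and 0.0512 to 0.0614 in all 4 MB libraries. Cacnb3 had 171 CPM in the MT knockdown library and 107 CPM in the MT control library, a log2 change of 0.54 that passed with the mark term (adjusted p = 0.0157) and not without (0.557).

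**Figure D3:**
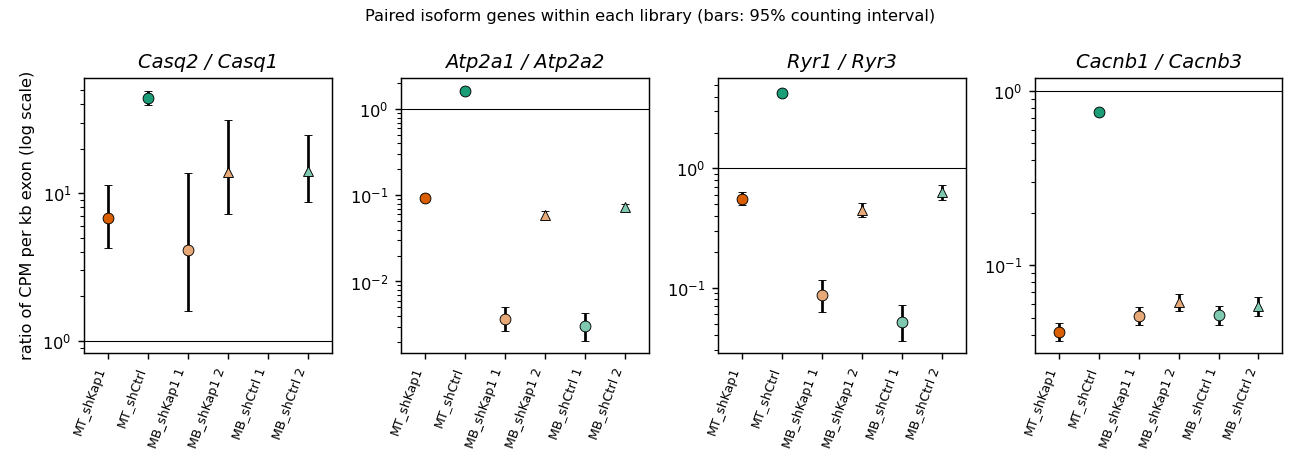
Ratio of a member to its sister gene, each in CPM per kilobase of annotated exon, within each library and on a log axis; bars are 95% counting intervals and the line marks equal levels. Atp2a1 and Ryr1 exceed their sister genes in the MT control library only, and Casq2 exceeds Casq1 in all 5 libraries shown.

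Per kilobase of annotated exon the members differed widely in level within the MT control library. Cacng1 (172 CPM per kilobase), Atp2a1 (170) and Casq2 (160) were highest, followed by Hrc (53.8), Jsrp1 (41.3), Cacnb1 (20.1), Cacna1s (17.3) and Ryr1 (14.1), with Casq1 (3.62) and Sypl2 (0.00917) last. In the MT knockdown library Cacng1 led at 17.7 CPM per kilobase, ahead of Atp2a1 at 3.67, Jsrp1 at 2.38, Casq2 at 1.92 and Cacnb1 at 1.78. Casq2 was therefore close to Cacng1 in the MT control library and well below it in the MT knockdown library. With 1 library each, the order has no replicate spread behind it.

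The sequence in front of the start sites is shown because 9 of these genes were at least 4-fold lower in the MT knockdown library and the study concerns MyoD, whose family binds E-boxes of the form CANNTG. RefSeq promoters on GRCm38.p6, 250 bases before to 50 bases after the start, were found for 8 of the 10 genes, with 2 starts for Cacnb1, which makes 9 sequences. They are read on the strand of the gene, 5′ to 3′, with E-boxes in capitals and, in Casq2, also the match to the MEF2 motif. The calsequestrins come first as a pair of sister genes, then the voltage sensor pore, then Ryr1 as a gene with no E-box in this window, and Sypl2 as one with E-boxes and almost no counts. Their positions are chr3:102086165-102086464 on the plus strand for Casq2, chr1:172219846-172220145 on the minus strand for Casq1, chr1:136052561-136052860 on the plus strand for Cacna1s, chr7:29125102-29125401 on the minus strand for Ryr1 and chr3:108226550-108226849 on the minus strand for Sypl2.
Casq2: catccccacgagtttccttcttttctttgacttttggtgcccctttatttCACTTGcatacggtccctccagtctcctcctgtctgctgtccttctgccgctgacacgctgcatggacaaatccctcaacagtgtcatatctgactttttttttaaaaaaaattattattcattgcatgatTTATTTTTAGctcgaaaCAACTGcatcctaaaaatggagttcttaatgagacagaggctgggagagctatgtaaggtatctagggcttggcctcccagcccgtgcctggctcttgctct
Casq1: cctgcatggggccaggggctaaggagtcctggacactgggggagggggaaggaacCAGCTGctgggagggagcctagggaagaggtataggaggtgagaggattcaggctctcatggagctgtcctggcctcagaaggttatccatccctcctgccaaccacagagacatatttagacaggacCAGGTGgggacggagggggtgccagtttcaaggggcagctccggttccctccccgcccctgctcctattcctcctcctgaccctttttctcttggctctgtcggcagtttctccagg
Cacna1s: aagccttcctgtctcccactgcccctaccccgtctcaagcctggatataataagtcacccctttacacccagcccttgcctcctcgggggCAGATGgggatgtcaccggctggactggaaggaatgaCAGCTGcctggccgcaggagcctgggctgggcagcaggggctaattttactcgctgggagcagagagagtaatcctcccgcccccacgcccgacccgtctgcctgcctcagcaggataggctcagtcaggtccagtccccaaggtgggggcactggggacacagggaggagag
Ryr1: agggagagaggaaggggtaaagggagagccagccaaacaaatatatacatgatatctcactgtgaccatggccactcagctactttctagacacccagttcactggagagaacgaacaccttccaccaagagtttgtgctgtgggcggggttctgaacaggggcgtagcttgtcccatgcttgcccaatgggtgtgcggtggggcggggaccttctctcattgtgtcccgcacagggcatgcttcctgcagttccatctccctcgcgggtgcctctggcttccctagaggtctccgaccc
Sypl2: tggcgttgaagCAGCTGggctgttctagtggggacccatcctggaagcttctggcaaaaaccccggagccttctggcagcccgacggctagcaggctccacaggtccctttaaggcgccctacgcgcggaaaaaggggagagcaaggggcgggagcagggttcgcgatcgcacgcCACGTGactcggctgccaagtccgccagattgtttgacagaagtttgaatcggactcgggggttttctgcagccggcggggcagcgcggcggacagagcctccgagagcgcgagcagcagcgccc

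E-boxes, searched as CANNTG, which reads the same on both strands, occurred in 7 of the 9 sequences and in 72.3% of the 32851 promoters of this length. The form CAGCTG, a subset of these, occurred in 5 of the 9 (Atp2a1, Cacna1s, Casq1, Hrc and Sypl2) and in 16.3% of all promoters. The MEF2 motif, searched on both strands, occurred in Casq2 alone of the 9 and in 3.19% of all promoters. Casq2, with the largest drop, held E-boxes of other letters, CACTTG and CAACTG, and no CAGCTG, while Sypl2, with 0 to 2 counts in every library, held CAGCTG and CACGTG. Ryr1, at 308 CPM in the MT control library, held none. A match is a description of letters and not of a bound site.

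Around these members, 8 lists of other calcium handling genes were read in the same way, and 61 of their 70 genes in the files passed the filter. In the MT contrast with the mark term, 29 of the 61 passed as lower and 1 as higher, with a median log2 change of -0.50. Of all genes tested, 11.2% passed as lower and 9.09% as higher in that fit, which the counts per list below also use. Without the term edgeR called 0 of the 61 and DESeq2 called 13, all as lower, where 1.82% of all genes were called lower by DESeq2. The list nearest to the members in place, other proteins of the triad and the reticulum membrane, had 13 of 14 lower and a median of -2.87. Srl (sarcalumenin, a calcium binding protein of the reticulum) had 14.3 CPM in the MT knockdown library and 584 CPM in the MT control library, a log2 change of -5.49. Jph2 (junctophilin, which ties the reticulum to the surface membrane) had 88.3 CPM in the MT knockdown library and 259 CPM in the control (-1.69), and Bin1, which shapes transverse tubules, had 267 CPM in the MT knockdown library and 636 CPM in the control (-1.39). Surface excitability genes had 5 of 6 lower and a median of -2.45, among them the acetylcholine receptor subunit Chrna1, with 193 CPM in the MT knockdown library and 705 CPM in the control (-2.01).

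The other 6 lists had medians between -1.29 and 0.05. Other release channels and their binding proteins had 0 of 7 called by edgeR with or without the mark term and 1 called lower by DESeq2, with a median log2 change of 0.05. Ryr3 had the lowest value of the list, -2.03, at 16.8 CPM in the MT knockdown library and 62.3 CPM in the MT control library (adjusted p = 0.0572 with the mark term), while Fkbp1a, which binds the ryanodine receptor, had 282 CPM in the MT knockdown library and 262 CPM in the MT control library. General calcium binding proteins of the reticulum had 0 of 12 called and a median of -0.09, with Calr (calreticulin) at 802 CPM in the MT knockdown library and 966 CPM in the control. Other pumps and their regulators had 2 of 3 lower (median -1.29): Atp2a2 at -1.57 and Mrln, the micropeptide that restrains SERCA, at -1.29. Other voltage sensor subunits and adaptors had 4 lower and 1 higher of 9 (median -0.76). Cacna2d1, the alpha2delta subunit, had 63.5 CPM in the MT knockdown library and 158 CPM in the control. Log2 changes in that list ran from -8.67 to 1.75. The lowest rests on 0 counts in the MT knockdown library against 57 in the control, and the highest on 11 against 4. Store-operated entry had 3 of 6 lower (median -0.21), with the store sensor Stim1 at 28.8 CPM in the MT knockdown library and 53.8 CPM in the control. Extrusion and buffering had 2 of 4 lower (median -0.32), with the surface pump Atp2b4 at 187 CPM in the MT knockdown library and 422 CPM in the control.

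**Figure D4:**
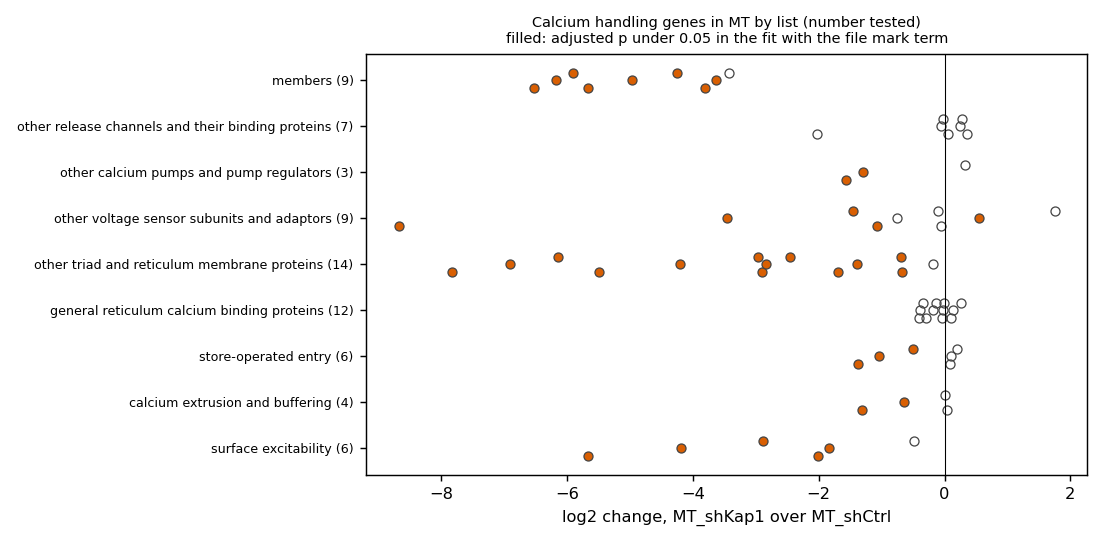
Log2 change of MT knockdown over MT control for each tested gene, by list, with the number tested in brackets; filled points passed at an adjusted p under 0.05 in the fit with the mark term. The members lie between -6.52 and -3.42, other triad and reticulum membrane proteins between -7.83 and -0.19, and general reticulum calcium binding proteins between -0.41 and 0.26.

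The genes whose profile over the 6 libraries lay nearest to the mean profile of the members were found by root mean square distance of centred log2 CPM, among 12527 genes with a mean of at least 1 CPM. The 8 nearest that are not members were Scn4a, the skeletal sodium channel, at a distance of 0.19, Camk2a, a calmodulin dependent kinase, at 0.197, Mypn (0.315), Btbd17 (0.343), Alpk3 (0.357), Trim72 (0.371), Trim54 (0.376) and Klhl41 (0.397). Camk2a had 2.62 CPM in the MT knockdown library and 81.1 CPM in the MT control library, with 0.472 and 2.04 CPM in the MB knockdown and 0.334 and 3.03 CPM in the MB control. The members themselves lay at 0.379 (Hrc) and 0.382 (Ryr1) up to 1.04 (Cacng1) and 1.31 (Cacnb1), so the 2 auxiliary subunits were the least typical of the set. The distances are a description over 6 libraries.

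Some counts may hold reads of other transcripts, or lack reads of their own, where exons overlap. In a mouse annotation of a later build, exons of Atp2a1 share 763 bases with Rabep2, those of Casq1 share 156 with Gm17224 and those of Cacnb1 share 80 with Gm11629, each on the opposite strand and each counted in the files. Exons of Ryr1 and Cacna1s share 864 and 1309 bases with antisense transcripts Gm26604 and Gm37759, which the files do not list. No source used here says whether counting used strand, so the levels of these 5 genes are uncertain to that extent.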

How the data were processed

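The authors deposited a table of raw counts for each library, 1 row per Ensembl gene, made, per the submitters' processing notes, with TopHat2 2.0.11, HTSeq and the mm9 genome; annotation release and strand setting are unknown here. Library totals were 36247530 to 49839994 counts, and lines naming no gene (no feature 5.18% to 8.07%, ambiguous 2.81% to 2.93%) were left out. Symbols came from a GRCm38 annotation, matched on the identifier for 32919 of 37991 genes holding 99.04% of the counts; exon lengths and overlaps came from it too, and promoters from RefSeq. Files and columns of other samples numbered 0.

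CPM are counts over the library total, with no further scaling. Ratios carry an exact 95% interval that covers counting error only, as does the floor of 3 counts. Tests used edgeR 4.0.16 in R 4.3.3 (filterByExpr by group, TMM scaling, robust quasi-likelihood fit of 4 group means over all 6 libraries, prior count 2 for centred profiles), for 5 contrasts, with p adjusted by Benjamini-Hochberg over 16472 genes and a threshold of 0.05. This fit has 2 residual degrees of freedom, and its MT contrasts borrow the spread of the MB libraries. The alternatives were a term for the file-name mark, relative log expression or total count scaling, DESeq2 1.42.0, no filter, and leaving out each MB library. The scripts were tested on simulated counts. The members, the gene lists and the alternatives were chosen with earlier results of these data known. Named genes are the 10 members, up to 4 genes of each other list with the highest mean CPM, not all printed, the 8 nearest profiles, the sister genes, and Trim28; the sister genes Ryr3 and Cacnb3 were picked by family.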

Additional observations from a re-analysis of the deposited data

Results flagged for a closer look

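The knockdown effect differed between MT and MB for 8 of the 9 genes tested, where 6.63% of all genes were called lower, by a test of the difference itself (the interaction in edgeR's quasi-likelihood fit with the term for the file-name mark, Benjamini-Hochberg over all genes). On the log2 scale, the MT effect minus the MB effect was -4.99 for Ryr1, -5.44 for Atp2a1, -3.41 for Casq1, -5.58 for Casq2, -5.75 for Hrc, -5.46 for Cacna1s, -3.63 for Cacnb1 and -4.55 for Jsrp1. The adjusted p ran from 7.04e-07 for Ryr1, Atp2a1 and Casq2 to 0.0359 for Casq1. Without the term edgeR called none of these, with adjusted p from 0.848 to 1, and DESeq2 called Cacnb1 alone. Leaving out single MB libraries from the fit without the term moved these values widely, for Atp2a1 from -8.65 without replicate 2 of the MB control to -2.57 without replicate 2 of the MB knockdown. Each MT arm is 1 library, so the difference has no replicate check in MT.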

How the results depend on the processing

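The edgeR fit of group means alone, with TMM scaling and the filter, called 0 members in each of the 5 contrasts. Other edgeR fits without the mark term moved that number for control differentiation only. They were relative log expression scaling, no filter, and leaving out either MB knockdown library. The replicate block, which is the mark term, gave 1 in MB, 8 in MT, 8 for control differentiation, 7 for knockdown differentiation and 8 for the interaction, where 1.34%, 11.2%, 22.3%, 16.6% and 6.63% of all genes were called in that direction. The block with total count scaling, chosen after seeing the data, gave 1, 8, 8, 7 and 7. There 509, 3715, 7384, 5241 and 1764 of all 16472 genes were called, in either direction. DESeq2 gave 2 in MT, 8 for control differentiation and 1 for the interaction, where 1.82%, 7.81% and 0.85% of all genes were called in that direction. For control differentiation, relative log expression scaling gave 1, where 78 of all genes were called in either direction. No filter also gave 1, and the share of all genes under it was not computed. The numbers pair only 2 libraries per group and the labels give no shared culture; across 16472 genes, replicate 2 minus replicate 1 in knockdown and control correlated at r = 0.762. In MB the direction of Ryr1 turned to 0.01 with total counts, 0.02 with the block and 0.05 with both, and that of Cacnb1 to 0.03 with total counts, 0.01 without the filter and 0.02 with the block and total counts. Leaving out single MB libraries turned directions in 15 of 36 MB values and 3 of 36 for knockdown differentiation. The MB ranges were -2.15 to 2.32 (Ryr1), -3.10 to 2.97 (Atp2a1), -1.44 to 2.56 (Casq1), -2.93 to 1.35 (Casq2), -1.86 to 1.83 (Hrc), -3.26 to 2.12 (Cacna1s), -2.15 to 0.12 (Cacng1), -0.15 to 0.14 (Cacnb1) and -3.26 to 2.95 (Jsrp1). For knockdown differentiation they were -0.14 to 2.13 (Cacng1), -0.02 to 0.27 (Cacnb1) and -0.67 to 3.94 (Jsrp1). In MT, control differentiation and the interaction no alternative turned a direction, but leaving out single MB libraries, mostly replicate 2, moved the interaction, with ranges of -7.30 to -2.82 (Ryr1), -8.65 to -2.57 (Atp2a1), -6.37 to -2.37 (Casq1), -7.88 to -3.59 (Casq2), -7.73 to -4.04 (Hrc), -8.32 to -2.92 (Cacna1s), -3.54 to -1.27 (Cacng1), -3.77 to -3.48 (Cacnb1) and -7.21 to -1.0 (Jsrp1). The MT libraries could not be left out, since each is its whole group. The MT knockdown change sets 1 library against 1. Leaving out MB libraries or adding the mark term therefore could not turn its direction, and its constancy there is no check. The cause of the shifts under the alternatives was not tested. Depth limits Casq1 in MB (1 to 17 counts) and Sypl2.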

Other observations

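Pvalb and Mrln, outside the 10 members, had MT levels above all 4 MB libraries with either hairpin. The trait is not particular to them. Other genes of the lists had it, among them Jph2, Calu, Chrna1 and Atp2a3. So did the members Ryr1, Casq1, Hrc and Cacnb1. The MT control library by itself stood above all 4 MB libraries for 32.2% of all genes tested. The share for both MT libraries was not computed. Pvalb (parvalbumin, a calcium buffer of fast fibres) had 7.23 CPM in the MT knockdown library and 6.54 CPM in the MT control library, against 0.257 and 0.298 CPM in the MB knockdown and 0.262 and 0.172 CPM in the MB control. Its log2 change over differentiation was 4.54 in knockdown cells and 4.85 in control cells with the mark term (edgeR adjusted p = 4.11e-05 and 7.86e-06; 0.265 and 0.0522 without it), and its MT knockdown change was 0.01 (adjusted p = 0.991), which does not show that the levels are equal. Mrln (myoregulin, a SERCA micropeptide) had 3.12 CPM in the MT knockdown library and 6.94 CPM in the MT control library, against 0.0214 and 0.618 CPM in the MB knockdown and 0.0477 and 0.615 CPM in the MB control. Atp2a3, the SERCA3 pump, had the trait too, but its MT levels were nearer to replicate 2 of MB. It had 3.97 CPM in the MT knockdown library and 2.89 CPM in the MT control library. In MB it had 0.322 and 1.85 CPM in the knockdown and 0.501 and 2.36 CPM in the control.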
